A study of Rattus norvegicus with 18 samples.

Results

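Rat cortical neuroglial cultures that had received glutamate together with memantine were compared with Control cultures across the genome. The comparison rests on 6 of the 18 libraries, namely Memantine 1 to 3 and Control 1 to 3, which were chosen by their titles alone. It addresses what still differed from Control when NMDA receptors were blocked during the glutamate insult. The cultures were prepared from the cortex of newborn Wistar rats, hold neurons together with glia, and had been treated early with cytosine arabinoside, which limits dividing cells. They were used on day 10 in vitro. In the Memantine group, 100 µM memantine was applied with the glutamate solution (100 µM glutamate with glycine in a calcium buffer), which was then washed out, and RNA was taken 4 h after the model. The label of this group names memantine only, and the series' design text places it in the glutamate model. The Glutamate group, used below for reference, received the same model without memantine. The Control group is labelled only as Control, and whether its medium was exchanged for buffer is not stated in the labels or the methods. Handling, glutamate and memantine are therefore joined in the comparison and cannot be told apart, and no group with memantine alone was analysed here. The methods state in general that experiments were repeated on unrelated cultures, but neither they nor the labels say which libraries came from separate cultures, animals or days. If the libraries of a group were not separate cultures, p-values measure only the spread between these libraries, which may be technical.

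The NMDA receptor is a glutamate-gated channel that admits calcium, and its overactivation by excess glutamate is a classical route to excitotoxic death of neurons. Memantine enters the open channel and blocks it, while AMPA, kainate and metabotropic glutamate receptors remain available to glutamate. Calcium entry and growth factor signalling switch on immediate early genes, which need no new protein synthesis for their transcription. Their products are largely transcription factors such as Fos and Egr1. CREB, which binds the cAMP response element (CRE), and SRF, which binds the CArG box, are well known regulators of this class.

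The sequences before the starts of 2 early genes are shown because both genes had an unadjusted p below 0.05 against Control and because they carry the 2 elements. Both are taken from RefSeq (GRCr8) and cover the 250 bases before the annotated start. Capitals mark a full CRE, TGACGTCA, or a CArG box, and both strands were searched. Egr2 encodes a zinc finger factor and Maff a small Maf factor. The Egr2 stretch, on the minus strand at chr20:21054442-21054691, holds a CArG box, and the Maff stretch, on the plus strand at chr7:112792537-112792786, holds a CRE.
Egr2: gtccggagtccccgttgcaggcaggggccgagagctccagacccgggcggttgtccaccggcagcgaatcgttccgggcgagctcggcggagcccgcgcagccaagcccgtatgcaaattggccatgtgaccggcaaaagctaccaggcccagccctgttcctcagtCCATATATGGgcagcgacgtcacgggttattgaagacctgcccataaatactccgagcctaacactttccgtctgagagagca
Maff: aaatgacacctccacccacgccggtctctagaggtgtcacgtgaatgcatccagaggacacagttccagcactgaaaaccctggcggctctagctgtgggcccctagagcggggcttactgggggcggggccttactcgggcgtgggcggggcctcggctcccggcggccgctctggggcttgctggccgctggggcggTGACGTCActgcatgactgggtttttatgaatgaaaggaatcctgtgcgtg
Of the 24 early transcription factors listed for this comparison, 18 matched a promoter entry. Fos, Jun, Egr3, Nr4a3, Atf3 and Csrnp1 did not. A full CRE lay in 4 of the 18 stretches (22.2%) and in 1.7% of all 27457 stretches of the same length. A CArG box lay in 3 (16.7%), against 1.5% of all stretches. The CRE core TGACG, which also lies within every full CRE, was found in 12 (66.7%), against 19% of all stretches. Of the 18 genes, 7 were higher by the unadjusted criterion against Control, and 1 of these held a CRE, against 3 of the other 11. The 11 include Egr4 and Npas4, which fell below the count filter and were not tested. The CRE core was in 4 of the 7 and 8 of the 11, and the CArG box in 2 and 1. These matches describe letters only, and no binding was measured.

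Libraries differed within groups before any gene was compared. Total counts ranged from 8409574 to 14869744. Control 1 drew 43% of its counts from ribosomal RNA, against 6.8% in Control 2 and 6.58% in Control 3, and the Memantine libraries lay between 4.16% and 13.9%. The mean share was 8.96% ± 4.86 (SD, n = 3) in Memantine and 18.8% ± 21 in Control, with p = 0.7 in an exact two-sided permutation test whose smallest possible p is 0.1. Mitochondrial genes took 2.59% ± 0.32 and 2.08% ± 1.02 of the counts (p = 0.7 in the same exact test). The median absolute log2 difference over genes was 0.23 between Control 2 and Control 3, but 0.982 and 1.04 between these and Control 1. It was 0.778 to 1.28 among the Memantine libraries and 0.657 to 1.44 between Memantine and Control libraries. Distances between the groups thus overlapped with distances within them.

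Memantine 3 stood apart in another way. Its genes of transmitter release and its neuron markers lay far below Control and its microglia and astrocyte markers above it, whereas release genes and neuron markers of Memantine 1 and Memantine 2 lay near or above Control. For the 19 genes of synaptic vesicles and release, the median level relative to the Control mean was 0.31 in Memantine 1, 0.86 in Memantine 2 and -1.98 in Memantine 3 on the log2 scale of CPM, a gene's count as a share of its library's TMM-scaled size. The Glutamate libraries were at -0.91, -1.27 and -1.71. For 14 microglia markers the Memantine values were -1.18, -0.19 and 2.18, and the Control values were -1.33, 0.4 and 0.72. Astrocyte markers were at 0.29, -0.57 and 1.27 in Memantine. In cultures sequenced in bulk, fewer cells of a type and less RNA per cell cannot be told apart. The labelled mixture of neurons and glia was present in the Control libraries by the defining markers Rbfox3 and Gfap (values below), while endothelial markers were near 0. Of 12 endothelial markers 11 were in the tables and 4 passed the count filter, and their summed level was 3.21 to 5.6 CPM in a library of the 3 groups. Of 14 fibroblast and mural markers 10 passed, and their summed level was 203 to 509 CPM in Control and 152 to 594 CPM in Memantine. The members below the filter were Dcn, Lum, Rgs5 and Acta2, with at most 4 counts summed over a group. Col1a1 was among the members that passed. Because of Control 1 and Memantine 3, medians of gene lists are also given with these libraries left out where that turned their direction.

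**Figure D1:**
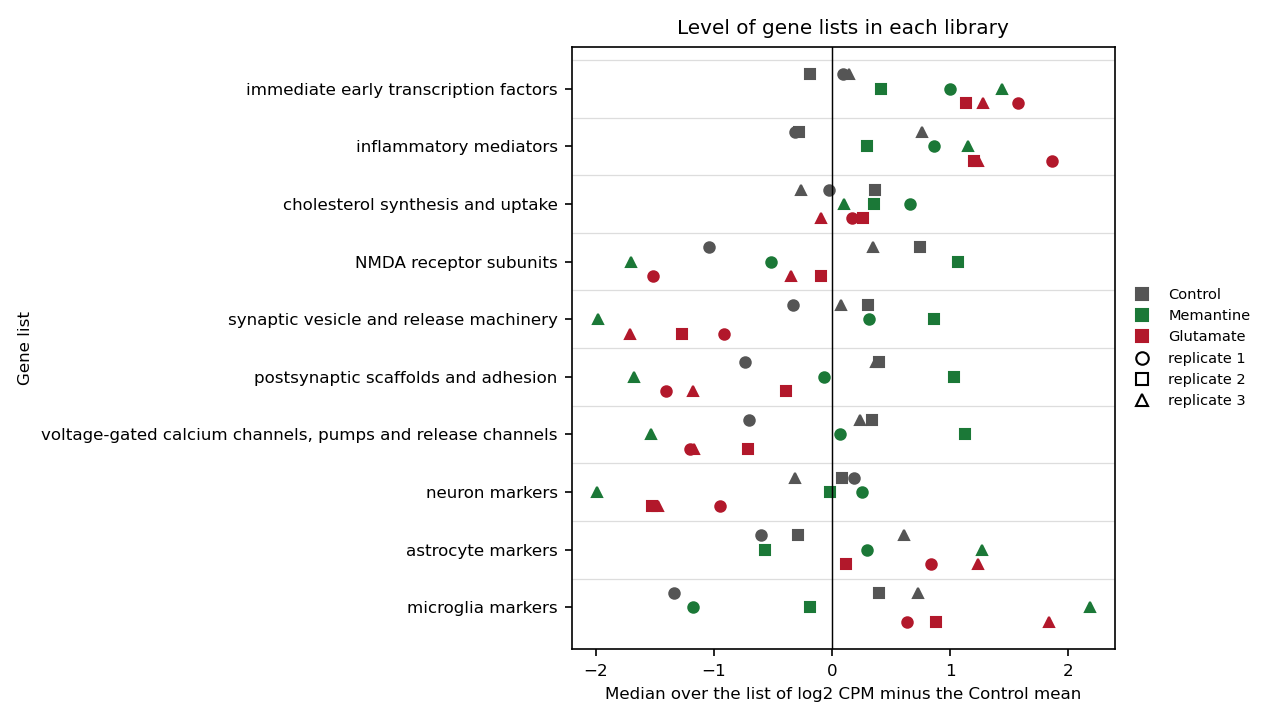
Level of 10 gene lists in the 9 libraries of Control, Memantine and Glutamate. The horizontal axis is the median over each list's genes of log2 CPM minus the Control mean, colours are groups and symbols replicate numbers. Memantine 3 lies at -1.98 for synaptic vesicle genes and at 2.18 for microglia markers, whereas the early transcription factors lie above 0 in each Memantine library.

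No gene passed the test between Memantine and Control. Of 14398 genes tested, 0 (0%) had an adjusted p below 0.05 in edgeR's quasi-likelihood test with Benjamini-Hochberg adjustment, and the smallest adjusted p was 1. DESeq2 and the likelihood-ratio test of edgeR also called 0, with smallest adjusted p of 1 and 0.9999. Before adjustment, 161 genes (1.12%) had a p below 0.05. All had a fold change above 1.5, and these 2 conditions together are called the unadjusted criterion below. They comprised 83 genes higher in Memantine (0.576% of genes tested) and 78 lower (0.542%). CPM values of the groups did not overlap for 167 higher genes (1.16%) and 172 lower genes (1.19%). For reference, Glutamate against the same 3 Control libraries gave 303 higher genes (2.1%) and 859 lower genes (5.97%) by the unadjusted criterion. Memantine against Glutamate gave 700 higher (4.86%) and 29 lower (0.201%). In edgeR 0 genes passed the adjusted threshold in either of these comparisons. DESeq2, fitted on 20990 genes, called 222 and 1 of the 14398 genes tested in edgeR.

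The absence of calls does not bound the difference closely. The median standard error of the log2 fold change was 0.624, and the 95% interval reached 1.33 to either side at the median. The interval lay wholly within 2-fold for 1944 genes (13.5%). The median log2 fold change of all genes was 0.105. Single libraries moved the count by the unadjusted criterion. Leaving out Control 3 gave 389, leaving out Memantine 2 gave 710 and leaving out Memantine 3 gave 433. It was 558 without both Control 1 and Memantine 3. Without Control 1 it was 135, of which 100 were higher and 35 lower. Among the 78 lower genes Control 1 was the highest Control library for 66, compared with 38.3% of all genes tested. Among the 83 higher genes Control 1 was the lowest for 55, compared with 53.4% of all genes tested. Its part in these differences was not tested beyond leaving it out.

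**Figure D2:**
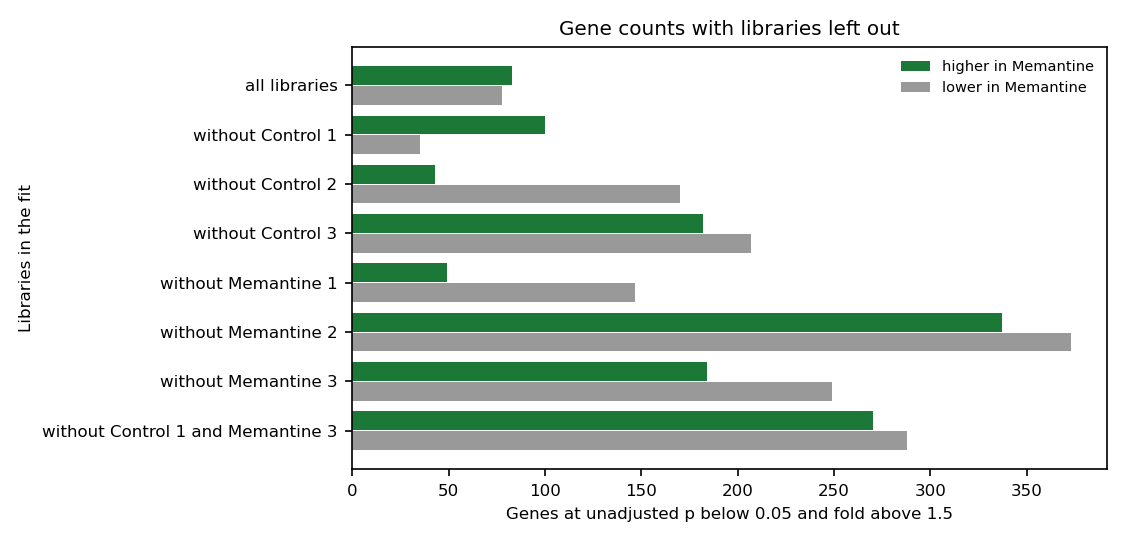
Number of genes at an unadjusted p below 0.05 and a fold above 1.5 between Memantine and Control, split by direction, with all libraries and with libraries left out in turn. Bars start at 0 and count genes. The count moves from 135 without Control 1 to 710 without Memantine 2, and lower genes are 35 in the first of these.

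Of 27 gene lists, the early-response transcription factors had the highest median in Memantine relative to Control. Their median log2 fold change was 1.04 over the 22 members that passed the count filter, beside 0.105 for all genes. By the unadjusted criterion 8 members were higher and 0 lower, where 0.576% of all genes were higher. Of the 22, 20 had a fold change above 0, and 9 had ranges apart with Memantine higher, as 1.16% of all genes had. Egr4 and Npas4 were below the filter. The median level of the list relative to the Control mean was 0.99, 0.41 and 1.43 in Memantine 1 to 3, between -0.19 and 0.15 in the Control libraries, and 1.57, 1.14 and 1.28 in the Glutamate libraries. The median of the list thus lay higher in each Memantine library than in each Control library. Its summed level did not separate the groups, at 683.5, 378.5 and 382.5 CPM in Control and at 838.8, 448.7 and 709.1 CPM in Memantine. By this sum Memantine 2 lay below Control 1. In Glutamate against Control, 13 members were higher (2.1% of all genes) and 1 lower (5.97%) by the unadjusted criterion, with a median of 1.29. In Memantine against Glutamate, the test of the difference between both groups, 1 member was higher (4.86% of all genes) and 0 lower (0.201%). The median there was -0.31. The single gene was Egr3 in both cases, named after its values were seen. Egr3 was at 2.28, 3.14 and 2.69 CPM in Control, at 0.537, 6.39 and 0.503 CPM in Memantine and at 0, 0.762 and 0.292 CPM in Glutamate, so that Memantine 2 alone lay above Control.

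The list's count depended on single libraries while its median remained positive in each of the 15 alternative analyses, between 0.69 and 1.21. It was 6 members without Control 1, where 0.681% of all genes were higher by the criterion, 2 without Control 2 (0.294%) and 4 without Control 3 (1.24%). Leaving out Memantine 1, 2 or 3 in turn gave 3 members (0.334%), 12 members (2.31%) and 5 members (1.26%). Without both Control 1 and Memantine 3 it was 4 (Fos, Fosb, Fosl2 and Klf4) with a median of 0.88, where 1.84% of genes were higher by the same criterion.

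Fos, a component of the AP-1 factor and a standard marker of recent activity, had the lowest p of the list. It was measured at 13.7, 11.9 and 9.1 CPM in Control 1 to 3 and at 47.3, 19.7 and 41 CPM in Memantine 1 to 3. The lowest Memantine library lay above the highest Control library. The Glutamate libraries were at 27.6, 43.5 and 80.2 CPM and overlapped those of Memantine. Its log2 fold change was 1.64 ± 0.43 (SE) against Control, with an unadjusted p of 0.00166 and an adjusted p of 1 in edgeR's quasi-likelihood test. The same gene had 2.13 ± 0.44 in Glutamate against Control, and the difference between Memantine and Glutamate was -0.49 with an unadjusted p of 0.262. Fos kept an unadjusted p below 0.05 in all 15 alternatives, with log2 fold changes from 1.4 to 1.94.

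Egr1, a zinc finger factor, was at 16, 13.8 and 14.5 CPM in Control and at 28.5, 26.2 and 41 CPM in Memantine, again without overlap. This was a log2 fold change of 1.11 ± 0.51 (SE), with an unadjusted p of 0.0448. The 3 Control libraries lay close together, and the Glutamate libraries, at 19.5, 53.3 and 33.7 CPM, spread over the Memantine range. Egr2 was at 0, 0.932 and 0.916 CPM in Control and at 2.26, 3.67 and 3.52 CPM in Memantine, with a log2 fold change of 2.14 ± 0.94. Maff was at 0, 1.57 and 1.99 CPM in Control and at 5.05, 2.45 and 5.75 CPM in Memantine (1.74 ± 0.78). For both genes whose upstream stretches are printed above, the Control library at 0 was Control 1, in which 0 counts were found.

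Fosl2 and Fosb, which encode further Fos family proteins, had the widest spread. Fosl2 was at 0.571, 1.13 and 1.94 CPM in Control and at 2.79, 22.5 and 2.59 CPM in Memantine, so that Memantine 2 carried most of its log2 fold change of 2.85 ± 1.06. Without Memantine 2 the value was 1.06. Fosb was at 0, 0.147 and 0.7 CPM in Control and at 6.98, 4 and 0.79 CPM in Memantine. Control 3 and Memantine 3 held 13 and 11 counts, so that their order in CPM rests on library size and scaling. The log2 fold change was 3.51 ± 1.33, and it rested on between 0 and 13 counts in a Control library. In the Glutamate libraries Fosb was at 0.904, 1.71 and 0.584 CPM, and the difference between Memantine and Glutamate was 1.85 with an unadjusted p of 0.147.

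Klf4, a Krüppel-like factor, and Crem, a CRE-binding modulator, were past the unadjusted criterion with overlapping groups. Klf4 was at 8, 3.63 and 3.77 CPM in Control and at 25, 6.67 and 8.26 CPM in Memantine. Crem was at 18.3, 7.26 and 15.7 CPM in Control and at 28, 9.28 and 46.9 CPM in Memantine. Memantine 2 was the lowest of its group for both. Their log2 fold changes were 1.4 ± 0.53 and 1.04 ± 0.49. Klf4 was at 0.58 without Memantine 1 and Crem at 0.47 without Memantine 3.

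Other factors of the class had fold changes above 0 without reaching the unadjusted threshold. Atf3, a stress-induced CREB family member, was at 8.57, 7.17 and 9.96 CPM in Control and at 16.9, 10.9 and 26.2 CPM in Memantine (1.07 ± 0.51, unadjusted p = 0.054). Its Glutamate libraries were at 50.6, 30.3 and 28.5 CPM, above each Memantine library. The difference of Atf3 between Memantine and Glutamate was -1.02, with an unadjusted p of 0.0635. The orphan nuclear receptor Nr4a1 was at 3.14, 4.12 and 4.58 CPM in Control and at 7.73, 4.78 and 16.2 CPM in Memantine (1.26 ± 0.63, unadjusted p = 0.0618). Junb, the Jun partner of Fos, overlapped between groups, with a log2 fold change of 0.81 ± 0.65.

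**Figure D3:**
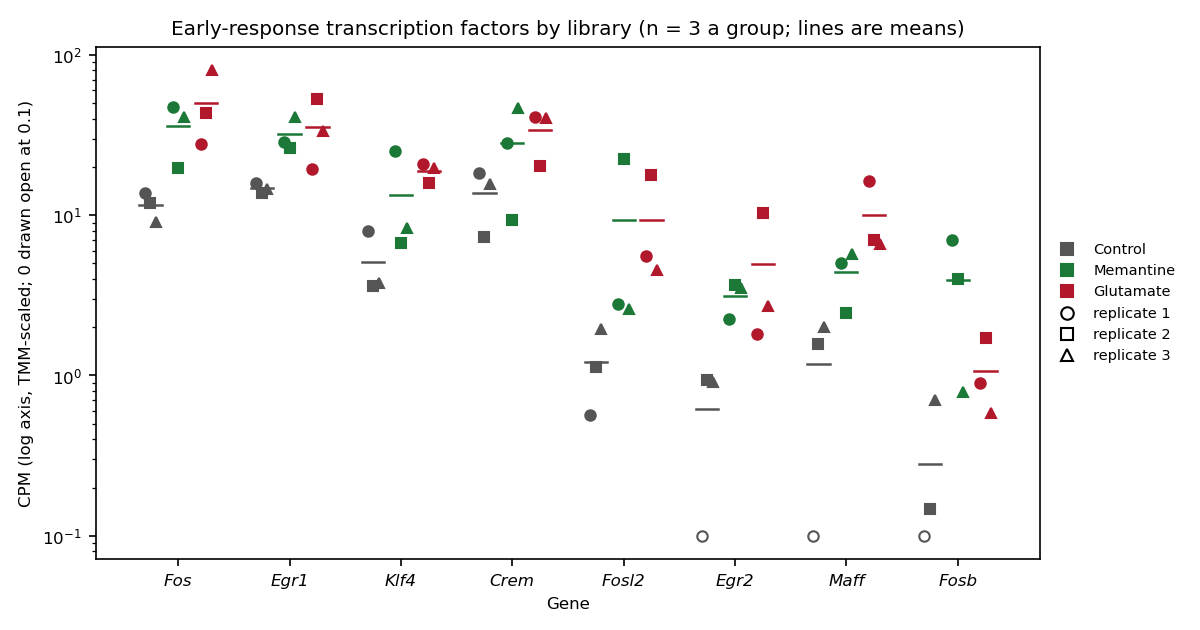
CPM of 8 early-response transcription factors in the 3 libraries of Control, Memantine and Glutamate, on a log axis, with group means as lines and values of 0 drawn open at 0.1. The 3 Memantine libraries lie above the 3 Control libraries for Fos, Egr1, Fosl2, Egr2, Maff and Fosb and overlap them for Klf4 and Crem. For Fosb, Control 3 and Memantine 3 are close, at 0.7 and 0.79 CPM.

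Of 23 tested effectors and signalling brakes of neuronal activity, 4 were higher (0.576% of all genes) and 0 lower by the unadjusted criterion, and their median log2 fold change was 0.3. Leaving out Memantine 2 turned this median to -0.2, whereas it was 0.8 with Control 1 and 0.71 with Memantine 3 left out. Without both Control 1 and Memantine 3, 2 were higher, where 1.84% of all genes were higher by the criterion. Trib1, a pseudokinase, was at 10.6, 15.9 and 15.9 CPM in Control and at 26, 25.2 and 41.7 CPM in Memantine, with ranges apart and a log2 fold change of 1.12 ± 0.35. Spry4, an inhibitor of growth factor signalling, was at 2.28, 8.54 and 6.41 CPM in Control and at 17.4, 12.8 and 16.5 CPM in Memantine (1.4 ± 0.62). Both genes showed each Memantine library above each Control library.

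Vgf, a secreted neuropeptide precursor, was at 10.8, 9.42 and 21.4 CPM in Control and at 156.7, 17 and 37 CPM in Memantine. Memantine 1 stood far above the others, and Memantine 2 lay within the Control range, so that the log2 fold change of 2.33 ± 0.8 was 0.95 without Memantine 1. Gadd45g, a stress-inducible gene, was at 2.28, 3.88 and 8.83 CPM in Control and at 44.1, 3.44 and 26.7 CPM in Memantine, with the same library low. The synaptic effectors of activity had values nearer to their errors. Arc, which acts in removal of AMPA receptors, had 1.03 ± 1.19, and Bdnf, a neurotrophin, had 0.36 ± 0.63. Homer1, a postsynaptic scaffold, had 0.43 ± 0.77, and Nptx2, which clusters AMPA receptors, had 0.27 ± 0.6. The groups overlapped for each of these 4 genes, and Homer1 ranged from 4.82 CPM in Memantine 3 to 50.7 CPM in Memantine 2.

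The neuronal gene lists of this paragraph had medians between -0.36 and 0.31 in Memantine as a group and were split by library. Voltage-gated sodium channels, given further below, were at 0.59. Against Control, 0.576% of all genes were higher and 0.542% lower by the unadjusted criterion. Counts of 0 in lists this short are near these shares. None of the 7 NMDA receptor subunit genes was past the unadjusted criterion in either direction against Control, and their median log2 fold change was 0.2. The corresponding counts were also 0 for 19 synaptic vesicle genes (median 0.06), 24 postsynaptic genes (0.07), 26 calcium channel, pump and release channel genes (0.16), 19 GABA genes (0.31) and 16 neuron markers (-0.36). In Glutamate against the same Control libraries the medians were -1.49 for NMDA subunits, -1.27 for synaptic vesicle genes, -1.16 for postsynaptic genes, -1.24 for calcium channel genes, -1.13 for GABA genes and -1.61 for neuron markers. By the unadjusted criterion 9 synaptic vesicle genes were lower in Glutamate than in Control, where 5.97% of all genes were lower. In Memantine against Glutamate 10 were higher, where 4.86% of all genes were higher. Without Memantine 3 the median of the synaptic vesicle genes against Control was 0.51, and without Control 1 as well it was 0.72. For neuron markers these values were 0.18 and 0.33, so that their direction turned with Memantine 3 left out. Without Memantine 2 the medians went the other way, to -0.53 for NMDA subunits, -0.3 for synaptic vesicle genes, -0.88 for postsynaptic genes, -0.74 for calcium channel genes and -1.27 for GABA genes. Without Control 1 the medians of NMDA subunits and postsynaptic genes were -0.064 and -0.076. Without Memantine 1 that of synaptic vesicle genes was -0.26.

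Grin1, the obligatory NMDA receptor subunit, was at 44, 98.1 and 94.1 CPM in Control and at 197.3, 108.6 and 22.6 CPM in Memantine. Memantine 3 lay below each Control library and Memantine 1 above. Its log2 fold change was 0.47 ± 0.59, with a 95% interval from -0.79 to 1.73. Against Glutamate, where Grin1 was at 41.6, 18.7 and 16 CPM, the log2 fold change was 2.11 with an unadjusted p of 0.00362. Grin2b, a glutamate-binding subunit, was at 12.3, 53.1 and 25.1 CPM in Control and at 38.8, 62.3 and 3.38 CPM in Memantine, and Grin2a had at most 1.4 CPM in Control and at most 5.61 CPM in Memantine. The log2 fold changes were 0.2 ± 0.71 and 1.46 ± 1.28.

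Slc17a7, the vesicular glutamate transporter of cortical neurons, was at 51.4, 78.3 and 52.9 CPM in Control and at 104.3, 80.3 and 8.26 CPM in Memantine. The Glutamate libraries held 16.4, 3.81 and 4.09 CPM. Memantine 1 and 2 thus lay above each Control library, and Memantine 3 lay among the Glutamate libraries. The log2 fold change was 0.08 ± 0.79 against Control and 3 against Glutamate, the latter with an unadjusted p of 0.00298. Snap25, a SNARE protein of transmitter release, was at 34.3, 99.9 and 104.6 CPM in Control and at 33, 129 and 14.1 CPM in Memantine (-0.44 ± 0.79).

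Rbfox3, the neuronal splicing factor known as NeuN, was at 54, 133.6 and 59 CPM in Control and at 162.7, 80.5 and 24.5 CPM in Memantine (0.12 ± 0.54). Of the 16 neuron markers, 5 had a fold change above 0 and 11 below. The 2 of smallest unadjusted p were Bcl11b (-1.71 ± 0.85) and Elavl4 (-1.07 ± 0.56), both with overlapping groups. Control 1 was the highest Control library for both, at 165.3 and 442.6 CPM. Plk2, a kinase of synaptic scaling named here after its values were seen, was at 30.3, 72.2 and 55.6 CPM in Control and at 35, 91.6 and 9.41 CPM in Memantine. Its Glutamate libraries were at 9.3, 15.9 and 8.07 CPM. LRRTM1, a postsynaptic adhesion protein, lay below Control in Memantine 1 as well, as Snap25 did. It was at 25.1, 30 and 33.9 CPM in Control and at 19.9, 26.7 and 8.55 CPM in Memantine. The log2 fold change was -0.69 ± 0.38, with an unadjusted p of 0.09, beside -2.27 ± 0.4 in Glutamate against Control.

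**Figure D4:**
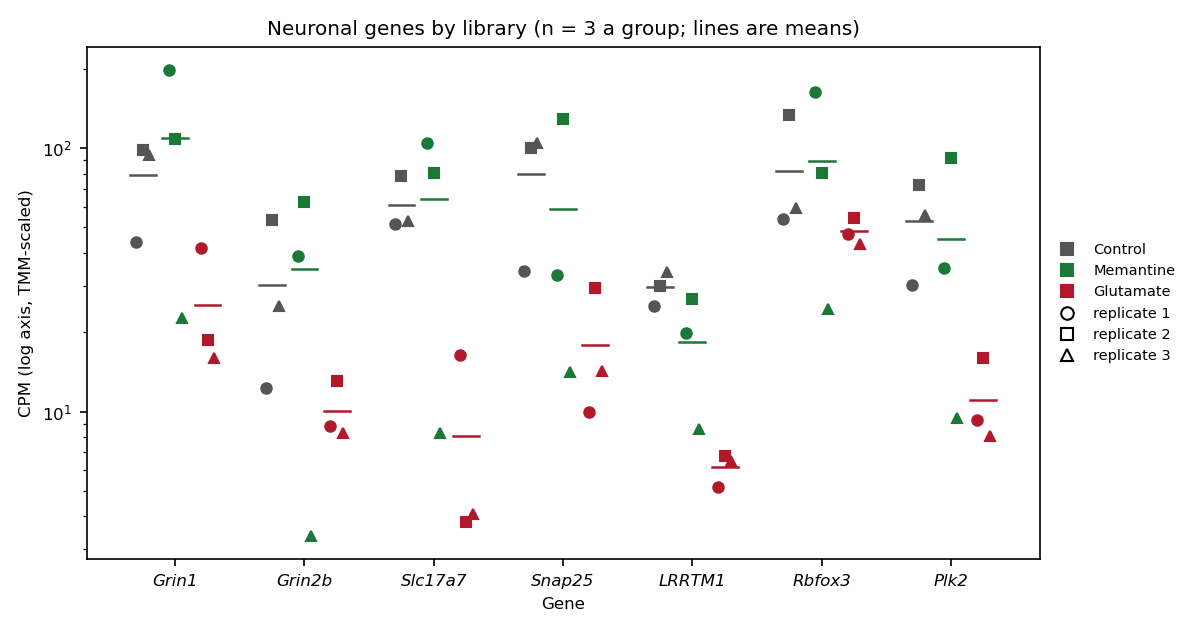
CPM of 7 neuronal genes in the 3 libraries of Control, Memantine and Glutamate, on a log axis, with group means as lines. Memantine 3 (green triangle) lies below the 3 Control libraries for each of the 7 genes, with Slc17a7 at 8.26 CPM, whereas Memantine 2 lies within the Control range or above it, with Slc17a7 at 80.3 CPM.

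Glial genes were also split by library. None of 11 astrocyte, 14 microglia and 14 oligodendrocyte lineage markers was past the unadjusted criterion, where 1.12% of all genes were. Their medians were 0.41, 0.57 and 0.19. Without Memantine 3 the medians of astrocyte, microglia and oligodendrocyte lineage markers were -0.23, -0.67 and -0.11, the opposite direction. Without Control 1 as well they were -0.31, -1.09 and -0.5. Without Control 1 alone the median of the oligodendrocyte lineage was -0.028. Gfap, the intermediate filament of astrocytes, was at 1275, 1590 and 3603 CPM in Control and at 2876, 1467 and 6530 CPM in Memantine (0.75 ± 0.67). The glutamate uptake transporters Slc1a3 and Slc1a2 had log2 fold changes of 0.23 ± 0.63 and 0.55 ± 0.64. Tyrobp, a microglial adaptor, was at 43.9 CPM in Memantine 3 and at 3.44 and 1.56 CPM in Memantine 1 and 2, against 2.28 to 10.4 CPM in Control.

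Stress and inflammatory genes had medians above that of all genes. Among their members only Dnajc3 was past the unadjusted criterion, a share near the 1.12% of all genes. The medians were 0.24 for 17 integrated stress response genes, 0.24 for 15 endoplasmic reticulum chaperones, 0.38 for 14 heat shock genes, 0.44 for 16 NRF2 antioxidant genes and 0.42 for 16 inflammatory mediators. The corresponding medians in Glutamate against Control were 0.74, 0.47, 0.31, 0.73 and 1.2. Without Memantine 3 the medians in Memantine were -0.092 for the integrated stress response, -0.12 for chaperones, 0.0057 for NRF2 genes and 0.055 for inflammatory mediators, and 0.38 for heat shock genes. Without Control 1 as well the same lists had -0.12, -0.0093, -0.1, -0.12 and 0.32. Dnajc3, an inhibitor of the kinases of the stress response, was the 1 chaperone gene past the unadjusted criterion, at 21.7, 16.1 and 14.7 CPM in Control and at 37.8, 19.7 and 38.1 CPM in Memantine (0.87 ± 0.37).

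Ppp1r15a, which directs dephosphorylation of eIF2alpha, and Hspa5, the main chaperone of the endoplasmic reticulum, had ranges apart with Memantine higher. Of all genes tested, 1.16% had this. Ppp1r15a was at 52, 48.1 and 42.9 CPM in Control and at 117.4, 62.5 and 107.7 CPM in Memantine (1.01 ± 0.51, unadjusted p = 0.066). Its Glutamate libraries were at 319.8, 122.2 and 117.5 CPM, each at or above the highest Memantine library. Hspa5 was at 125.1, 388.4 and 420.3 CPM in Control and at 426.4, 598.2 and 694.2 CPM in Memantine (0.88 ± 0.49). The separation of Hspa5 was narrow between Control 3 and Memantine 1.

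Timp1, a protease inhibitor secreted by reactive glia, spread most among these. It was at 40.8, 20.4 and 51.9 CPM in Control and at 202, 12.1 and 172.7 CPM in Memantine, so that Memantine 2 lay below Control. Ddit3, a factor of stress-induced death, followed the same split, at 177.5, 14.4 and 79 CPM in Memantine and at 116.8, 41.6 and 32.4 CPM in Control. The log2 fold changes were 1.77 ± 0.94 and 0.51 ± 0.86. Hmox1, which degrades haem, had 0.67 ± 0.56. Hspa1b had 0.38 ± 0.58, and its counts can be shared with the near-identical Hspa1a. Of 21 tested genes of the Bcl2 family, caspases and calpains, 0 were past the unadjusted criterion, where 1.12% of all genes were. Their median was 0.11, or -0.00069 without Control 1 and -0.15 without Memantine 3 as well. Capn2, a calcium-activated protease, had 0.77 ± 0.37.

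The genes of cholesterol synthesis and uptake had a median of 0.42, with 20 of 21 fold changes above 0. In Glutamate against Control their median was -0.01. A single member, Msmo1, was past the unadjusted criterion, where 1.12% of all genes were. Msmo1, a demethylase of sterol synthesis, was at 73.7, 102.2 and 117.2 CPM in Control and at 109.2, 147.5 and 246.1 CPM in Memantine (0.78 ± 0.35). Without both Control 1 and Memantine 3 the median was 0.46, and over the 15 alternatives it ranged from 0.33 to 0.54. Hmgcs1, an early enzyme of the pathway, was at 480.2, 378.4 and 310.7 CPM in Control and at 684.9, 593.1 and 394.1 CPM in Memantine (0.52 ± 0.33). It had -0.36 ± 0.33 in Glutamate against Control, and the difference between Memantine and Glutamate was 0.88 with an unadjusted p of 0.0172. The sterol-responsive factor Srebf2 had 0.61 ± 0.35, with overlapping groups.

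The remaining lists had 0 members past the unadjusted criterion, except for the glycolysis and hypoxia genes, where Hk2 (given below) was higher, and the lysosome genes, where Atp6v1h was lower. Of all genes tested, 1.12% were past it, and such counts are near that share. Atp6v1h, a subunit of the proton pump of lysosomes and synaptic vesicles, was at 78, 95.5 and 82.1 CPM in Control and at 31.5, 74.7 and 56.6 CPM in Memantine (-0.65 ± 0.3). Medians were 0.14 for glycolysis and hypoxia genes, 0.28 for lysosome genes, 0.35 for proliferation genes and 0.12 for other glutamate receptor genes. They were 0.18 for genes of glutamate uptake, release and recycling, 0.25 for other reported targets of memantine and 0.59 for voltage-gated sodium channels. Fibroblast and mural markers were at 0.34, and 4 endothelial markers that passed the filter were at -0.12. Without Memantine 3 the direction turned for lysosome genes (-0.17) and proliferation genes (-0.25). Without Control 1 as well these were -0.28 and -0.36, and glycolysis genes (-0.074) and fibroblast and mural markers (-0.13) also turned. Without Memantine 2 other glutamate receptor genes were at -1.02, genes of glutamate uptake, release and recycling at -0.35 and sodium channels at -0.097. Without Memantine 1 other glutamate receptor genes were at -0.015 and endothelial markers at 0.26. Without Control 1 the glutamate uptake, release and recycling genes were at -0.033.

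Across all genes, the 12 higher and the 12 lower genes of smallest unadjusted p were examined among those with groups apart and an average log2 CPM of 1 or more. Fold changes of the higher genes ranged from 0.61 to 2.85 and those of the lower genes from -1.66 to -0.79 on the log2 scale. Control 1 was the outermost Control library for 10 of the 12 in either set, the lowest for higher genes and the highest for lower genes. Over all genes tested it was the lowest for 53.4% and the highest for 38.3%. Of the 12 higher genes, Fos, Fosl2 and Trib1 were given above. Hk2, which phosphorylates glucose in the first step of glycolysis, was at 14, 9.13 and 5.44 CPM in Control and at 28.8, 17.3 and 14.4 CPM in Memantine (1.1 ± 0.39). It was at 40.4, 32.5 and 25.3 CPM in Glutamate. Gmps, which makes GMP, had tight groups, at 29.7, 31.4 and 35.9 CPM in Control and at 49, 49.7 and 49.4 CPM in Memantine. The log2 fold change was 0.61 ± 0.23, with an unadjusted p of 0.0193.

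The other higher genes had less than 2-fold differences except for Slc22a21 at 1.67 ± 0.65. This gene of the carnitine transporter family shares sequence with close relatives, and its level is uncertain for that reason. They comprised Triobp (0.92), an actin-binding protein, Pank2 (0.87), the first enzyme of coenzyme A synthesis, and Rrp12 (0.84), a ribosome assembly factor. Sacm1l (0.78), a phosphoinositide phosphatase, Inpp5a (0.77), which degrades inositol trisphosphate, and Slc16a6 (0.91), of the monocarboxylate transporter family, completed the set. Rrp12 rested on Memantine 1, at 92.8 CPM against 36.8 and 35.9 CPM in the other Memantine libraries, and was 0.24 without it.

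Among the lower genes, Nr2f1, an orphan nuclear receptor of cortical patterning, was at 110.2, 87 and 85.1 CPM in Control and at 25.7, 55.5 and 44.8 CPM in Memantine. Its log2 fold change was -1.16 ± 0.37, with an unadjusted p of 0.00686, and this p stayed below 0.05 in all 15 alternatives. Id2, an inhibitor of basic helix-loop-helix factors, was at 111.4, 47 and 59.2 CPM in Control and at 18, 28.2 and 41.3 CPM in Memantine (-1.31 ± 0.42). Lhx2, a LIM homeodomain factor, was at 335.8, 72 and 70.3 CPM in Control and at 51.8, 44.1 and 55 CPM in Memantine. Control 1 was far above the other Control libraries for Lhx2, and the log2 fold change of -1.66 ± 0.51 was -0.5 without it.

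Akap7, an anchor for protein kinase A, had the smallest p of the lower genes, at 96.2, 62.2 and 53.7 CPM in Control and at 29.4, 49.1 and 19.8 CPM in Memantine (-1.11 ± 0.33, unadjusted p = 0.00456). Hprt1, which salvages purines, was at 42, 43.5 and 40.6 CPM in Control and at 24, 28 and 21.1 CPM in Memantine. Both groups of Hprt1 were tight, and Control 1 lay with the other Control libraries. Its log2 fold change was -0.79 ± 0.3, with -0.9 ± 0.3 in Glutamate against Control. Tmem158, a membrane protein induced by Ras signalling, was at 3.14, 3.39 and 4.09 CPM in Control and at 0.752, 2.17 and 0.719 CPM in Memantine (-1.53 ± 0.55).

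The remaining lower genes were C1d (-1.23), a cofactor of the RNA exosome, Ube2e3 (-0.91), a ubiquitin-conjugating enzyme, and Rbm48 (-1.01), a splicing factor. Rab40b (-1.1), a small GTPase, Glrx (-0.86), a glutaredoxin, and Arxes2 (-1.57) completed them. Arxes2 has a near-identical relative, Arxes1, and its counts can be shared with it. The log2 fold change of C1d was -0.52 without Control 1. Fold changes of these genes in Glutamate against the same Control libraries are drawn beside those of Memantine in the plot of named genes. Both comparisons share the Control libraries, so that like values in them are not independent.

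**Figure D5:**
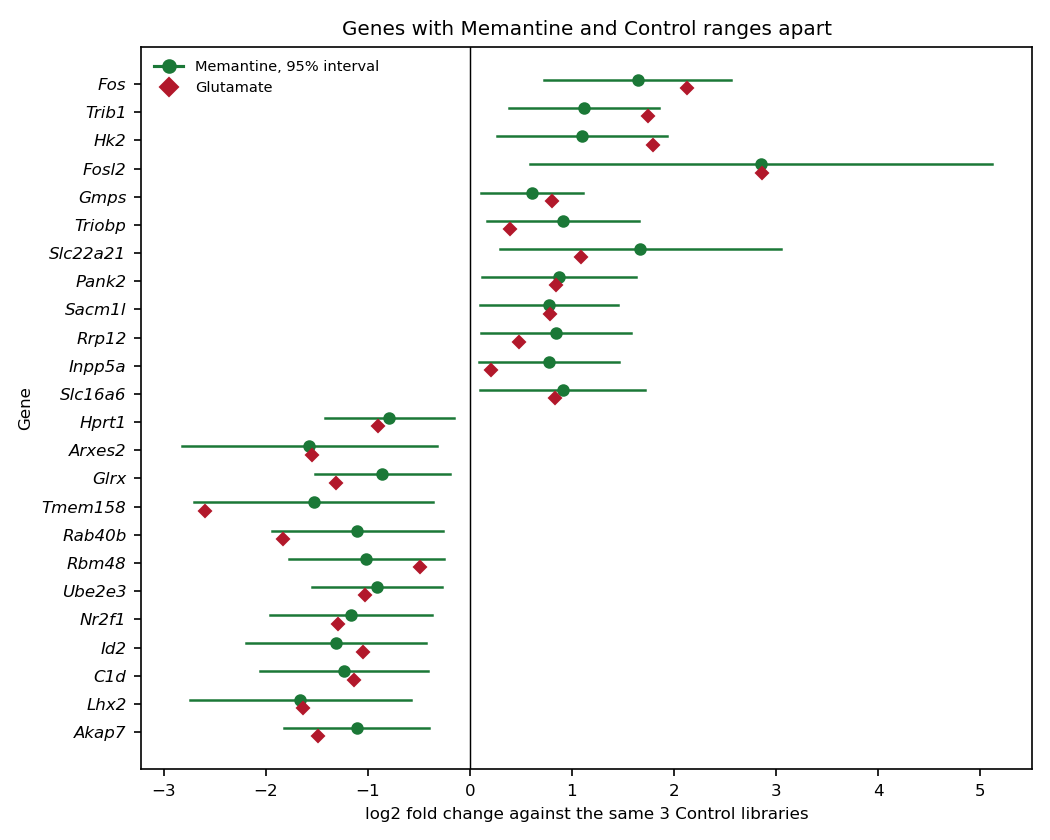
log2 fold change of the 12 higher and 12 lower genes chosen by rule, in Memantine against Control (circles, with the 95% interval as a line) and in Glutamate against the same 3 Control libraries (diamonds). The genes were chosen for groups that do not overlap and a small p, so that intervals that leave out 0 are part of the choice. Values run from -1.66 for Lhx2 to 2.85 for Fosl2.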

How the data were processed

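RNA was sequenced from rat cortical neuroglial cultures, and the 18 deposited tables hold expected counts, which are estimated read numbers per gene and can be fractional. According to the study's methods, the authors quantified trimmed reads with Salmon against Ensembl rat transcripts and summed them to genes with tximport. The submitters' processing notes also name STAR and the build rn6. The paper and the labels name different sequencing platforms. Each table held 31463 rows, and strand was not stated for the counting.

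Counts were rounded and tested with edgeR 4.0.16 in R 4.3.3 on all 18 libraries with 1 mean per group. Besides Control, Memantine and Glutamate, the fit held the groups labelled Glutamate_vesicles, Glutamate_secret and Glutamate_BPC. Their libraries shared in the filter, the scaling and the estimate of spread. Genes were filtered with filterByExpr (minimum count 10, minimum total 15), which left 14398, and scaled by TMM. The two-sided quasi-likelihood test was used with Benjamini-Hochberg adjustment, and its standard error (SE) was derived from the F statistic. CPM used TMM-scaled library sizes and log2 CPM a prior count of 2. The study's own test in edgeR, a likelihood-ratio test, was run beside it. Genes with a fold above 1.5 and p below 0.05 before adjustment were counted as a description, called the unadjusted criterion. The study's text gives these thresholds without saying whether p was adjusted, and its methods state a false discovery rate. A day covariate that a supplementary legend mentions is not in the labels and was not used. DESeq2 1.42.0 was an alternative. Scripts were tested on simulated data.

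Groups followed the sample titles. Genes were named by rule, namely the 12 higher and 12 lower genes of smallest unadjusted p among those with groups apart and an average log2 CPM of 1 or more, up to 2 members of smallest p in each of 27 gene lists (466 genes), and 26 fixed genes, of which 1 is not reported here. Egr2, Maff, Klf4, Crem, Gadd45g, Spry4, Egr3 and Plk2 were named outside this rule after their values were seen. Of the list members chosen by the rule, not all are given above. The lists, the fixed genes and the comparison were chosen with earlier results of these data known. Levels were not compared between genes, since no lengths were used. Control 1 was the shallowest library, with 8409574 counts. Its TMM factor of 0.417 made its scaled size smaller still. The factors were 1.37 in Control 2, 1.42 in Control 3 and 0.819 to 1.58 in Memantine. Promoter stretches came from RefSeq tables of GRCr8, another build than that of the counts. Alternatives were other tests, scalings and filters, a replicate block, the ribosomal RNA share as a covariate, the 6 libraries alone and each library left out. Leaving out Control 1 and Memantine 3 together was added after seeing the data.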

Additional observations from a re-analysis of the deposited data

How the results depend on the processing

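In each of the 15 alternatives 0 genes passed the adjusted threshold, and 0 of 975 values of named genes did. The number of genes by the unadjusted criterion was 316 with DESeq2 (147 higher, 169 lower), 201 with the likelihood-ratio test (90 and 111), 239 without a filter, 23 in the 6 libraries alone, 564 with the ribosomal RNA share as a covariate and 558 without both Control 1 and Memantine 3. With libraries left out in turn it ranged from 135 to 710, and the split was 43 to 170 without Control 2 and 49 to 147 without Memantine 1. Genes with an interval within 2-fold numbered 0 in the 6 libraries alone, 3937 with the covariate, 1284 without both libraries and 947 to 1731 with libraries left out in turn. Early transcription factors past the criterion numbered 5 in the 6 libraries alone, where 0.0804% of all genes were higher. They numbered 4 without both libraries (1.84%) and 2 to 12 with libraries left out in turn (0.294% to 2.31%).

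Same-numbered Memantine and Control libraries had correlations of 0.59, 0.55 and -0.0019 between their deviations from the group means. Memantine 1 and Memantine 2 correlated most with the Control library of their own number, whereas Memantine 3 correlated most with Control 1 (0.15). The labels do not say whether a number marks a shared culture or day, and the main fit left the numbers out. Whether they pair the libraries was not tested. With the replicate block 394 genes were past the criterion (149 higher, 245 lower), 4252 had an interval within 2-fold, and the median log2 fold change of all genes was -0.05.

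Of 65 named genes followed through the alternatives, 17 had a log2 fold change of the other sign in some. None of these had been called. With the block these were Homer1 (-0.19), Grin2b (-0.041), Slc17a7 (-0.24) and Rbfox3 (-0.11). With the covariate they were Homer1 (-0.41), Nptx2 (-0.032), Slc1a2 (-0.017) and Slc1a3 (-0.15). Without both libraries they were Arc (-0.35), Nptx2 (-0.17), Slc1a3 (-0.25), Gfap (-0.31), Tyrobp (-1.88), Hspa1b (-0.13) and Egr3 (0.25). With libraries left out in turn the ranges were -1.04 to 0.92 for Homer1, -0.23 to 0.66 for Nptx2, -0.27 to 0.98 for Grin1, -0.44 to 2.09 for Grin2a, -0.53 to 0.89 for Grin2b, -0.46 to 0.62 for Slc17a7, -1.77 to 0.043 for Snap25, -0.65 to 0.66 for Rbfox3, -1.25 to 0.28 for Plk2, -0.36 to 0.92 for Slc1a2, -0.064 to 0.59 for Slc1a3, -1.43 to 1.8 for Tyrobp, -2.37 to 0.37 for Egr3 and -0.43 to 1.29 for Ddit3. The cause of these changes was not tested. The depth of Control 1, in which 1 count is a larger share, limits genes of low level such as Fosb, Egr2 and Maff.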
